A study of Homo sapiens with 3 samples.

Results

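Long noncoding RNAs with a name that begins with LINC (long intergenic noncoding RNAs) or ends with -AS1 (transcripts read antisense to the gene they are named after) were followed in NCI-H1650, an established human lung adenocarcinoma cell line, after exposure to colossolactone H, a triterpenoid of the fungus Ganoderma colossum. Of 1547 genes of this name pattern among 19775 genes on the arrays, 177 had a signal over 150 on at least 1 of 3 arrays. They were made up of 56 LINC and 121 -AS1 RNAs, or 6.66% of the LINC and 17.1% of the -AS1 genes on the arrays, while 56.6% of 18228 other genes passed the same threshold. Current gene records class 174 of them as long noncoding RNAs and 1, GNAS-AS1, as an antisense RNA, and 2, LINC01296 and TNRC6C-AS1, were matched to no record. Membership was thus set by signal, so that their detection is a description and not a finding, and the 3 comparisons share those same arrays. Each RNA was read by its probe set with the highest mean signal.

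The study held 3 Affymetrix arrays of 54675 probe sets. One array carried RNA of cells exposed to 40 μM colossolactone H for 24 h, one carried RNA of cells exposed to that dose for 12 h, and one carried RNA of control cells of the same line. Treated dishes of 10 cm were seeded with 1000000 cells, and labelled cRNA was made from 6 μg of Trizol-extracted RNA. No vehicle and no collection time are stated for the control. With 1 array in each group there is no replicate error, no p-value is given, and every difference describes a pair of arrays. A fold of 2, a difference of 1 on the log2 scale, is used only as a rule of size. Signals are linear intensities on a scale shared by the arrays, differences are log2 of the group named first over the group named second, and signals under 61.4 were set to that floor. Because RNA was taken from whole cultures, fewer cells of a type and less RNA per cell cannot be told apart.

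Long noncoding RNAs are transcripts without a recognised protein product, made by RNA polymerase II and mostly capped and spliced. Some act near their own gene, by being transcribed across or beside a neighbour, and others act elsewhere as scaffolds for proteins or as binding partners of microRNAs and mRNAs. Antisense RNAs often start close to the start of the gene on the other strand, so that a pair shares one stretch of promoter DNA. In lung tumours, many are studied as markers of cell state.

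Promoter sequences are shown for 6 RNAs around which the results below turn. They are RefSeq sequences of GRCh38.p14, each running 5′ to 3′ on the strand of the RNA over 300 bases, of which 250 lie before the annotated start. LINC02806, on the plus strand at chr1:148279018-148279317, and LINC01133, on the plus strand at chr1:159960974-159961273, are shown because both had higher signals in treated cells and hold the only matches, beside LINC00623, to the ATF4 and CHOP element TGATGNAAN. That match is in capitals. In LINC02806 it lies on the other strand, 45 bases before the start. In LINC01133 it begins just after the annotated start and so lies within the transcript.
LINC02806: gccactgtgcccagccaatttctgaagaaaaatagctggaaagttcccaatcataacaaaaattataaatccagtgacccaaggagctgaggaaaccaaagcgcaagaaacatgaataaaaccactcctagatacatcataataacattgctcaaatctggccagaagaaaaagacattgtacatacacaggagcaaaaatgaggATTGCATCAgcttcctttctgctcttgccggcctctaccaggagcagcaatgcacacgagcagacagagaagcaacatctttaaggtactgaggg
LINC01133: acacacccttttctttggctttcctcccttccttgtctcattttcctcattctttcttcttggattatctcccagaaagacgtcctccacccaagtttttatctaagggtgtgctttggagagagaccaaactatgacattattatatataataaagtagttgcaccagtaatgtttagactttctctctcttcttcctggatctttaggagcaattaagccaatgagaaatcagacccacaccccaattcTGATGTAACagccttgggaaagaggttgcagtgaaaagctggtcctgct

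LINC03011, on the plus strand at chr7:66493382-66493681, is shown because it was the RNA with a 2-fold difference that all alternatives run kept. It has no second probe set and its signals lay over every floor used, so several of these alternatives could not change it. A match to the antioxidant element TGACNNNGC is in capitals, 76 bases before the start.
LINC03011: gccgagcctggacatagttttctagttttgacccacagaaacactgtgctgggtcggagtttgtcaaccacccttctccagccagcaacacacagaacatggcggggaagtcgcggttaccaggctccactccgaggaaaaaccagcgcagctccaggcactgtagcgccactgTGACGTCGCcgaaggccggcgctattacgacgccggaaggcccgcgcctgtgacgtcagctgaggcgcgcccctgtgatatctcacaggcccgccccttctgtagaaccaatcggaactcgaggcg

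LINC02987, on the plus strand at chr19:27793645-27793944, and LINC00662, on the minus strand at chr19:27793891-27794190, are shown because the ends of these windows overlap and the signals of both RNAs were lower in treated cells. Neither window holds a match to any of the 6 motifs searched, so nothing is in capitals.
LINC02987: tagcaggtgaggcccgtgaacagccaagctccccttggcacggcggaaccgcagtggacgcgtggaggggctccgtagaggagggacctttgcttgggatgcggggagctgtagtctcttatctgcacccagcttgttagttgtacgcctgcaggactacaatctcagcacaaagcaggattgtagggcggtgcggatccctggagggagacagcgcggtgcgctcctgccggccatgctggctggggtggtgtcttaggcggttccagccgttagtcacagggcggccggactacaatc
LINC00662: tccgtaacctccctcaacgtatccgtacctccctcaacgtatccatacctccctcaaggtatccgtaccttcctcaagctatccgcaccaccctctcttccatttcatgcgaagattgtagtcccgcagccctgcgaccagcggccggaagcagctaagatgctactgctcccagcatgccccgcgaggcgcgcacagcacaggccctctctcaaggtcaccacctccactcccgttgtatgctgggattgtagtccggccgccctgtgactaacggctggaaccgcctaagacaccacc

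LINC-PINT, on the minus strand at chr7:130913261-130913560, is shown because another of the 177 RNAs, LINC00513, starts 154 bases away on the other strand and lay on the other side of the control. An E-box, CACGTG, is in capitals.
LINC-PINT: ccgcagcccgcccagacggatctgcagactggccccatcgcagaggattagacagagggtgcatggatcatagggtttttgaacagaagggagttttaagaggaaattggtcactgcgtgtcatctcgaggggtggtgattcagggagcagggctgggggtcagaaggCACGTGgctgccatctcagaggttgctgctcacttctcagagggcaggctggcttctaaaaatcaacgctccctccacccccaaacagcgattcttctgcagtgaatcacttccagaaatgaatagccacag

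The quality of the arrays bears on all values. The 3′ to 5′ signal ratio of ACTB, a measure of RNA integrity, was 6.55 at 24 h, 5.38 at 12 h and 4.95 in the control, while that of GAPDH lay between 1.21 and 1.25. Of 9 epithelial lung adenocarcinoma markers, 8 were over the floor on at least 1 array, but the lineage factor NKX2-1 was under it on all 3 arrays and NAPSA was over it only at 24 h. Of 5 leukocyte markers on the arrays only ITGAM was over the floor, in the control alone, and the 5 summed to between 125.7 and 188.9. Of 8 fibroblast and endothelial markers, COL1A1, COL3A1 and PECAM1 were over the floor, and the list summed to 1257.4 at 24 h, 1553.4 at 12 h and 1861.2 in the control. The part of these in the results was not tested.

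As a group the 177 RNAs did not lie to one side of the control. At 24 h, 88 were above and 89 below the control, with a median of -0.00 and extremes of -1.33 and 1.09. At 12 h, 91 were above and 86 below, with a median of 0.02. The medians of all 12351 measured genes were 0 at 24 h and 0.00 at 12 h. A 2-fold difference was reached by 4 of the 177 at 24 h, LINC02806 and LINC03011 higher and LINC01224 and TTN-AS1 lower, which is 2.26% against 1.23% of all measured genes (0.591% higher and 0.64% lower). At 12 h it was again reached by 4, LINC02806, A1BG-AS1 and MSANTD2-AS1 higher and LINC02987 lower, against 0.883% of all measured genes (0.445% higher and 0.437% lower). Between the treated arrays, 24 h against 12 h, it was reached by 0 of the 177, against 0.324% of all measured genes, with 89 above and 88 below. LINC02806, LINC01224, TTN-AS1, A1BG-AS1 and MSANTD2-AS1 passed the threshold of 150 only on arrays where they were higher. The choice of members thus partly fixed the 2-fold counts and shares against the control.

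The shares were also set beside genes of like signal. Among genes whose highest signal lay between 150 and 500, a 2-fold difference was found at 24 h for 2.27% of 132 LINC and -AS1 RNAs, against 2.61% of 2570 other genes. At 12 h the shares were 2.27% of these RNAs and 2.02% of the other genes. The robust SD of the differences was 0.38 for these RNAs at 24 h, against 0.37 for the other genes. At 12 h it was 0.38 for the RNAs and 0.34 for the other genes. A 1.5-fold difference was found in this band at 24 h for 15 RNAs, or 11.4%, against 386 of the 2570 other genes. Where the highest signal was over 500, a 2-fold difference was found for 1 of 45 RNAs in each comparison with the control, LINC03011 at 24 h and LINC02987 at 12 h. That is 2.22%, against 0.697% of 7746 other genes at 24 h and 0.439% at 12 h. In this band the robust SD was 0.28 for the RNAs and 0.27 for the other genes at 24 h, and 0.32 for the RNAs and 0.22 for the other genes at 12 h, and the share at 1.5-fold at 24 h was 11.1% of the RNAs, against 6.15% of the other genes. Over all signals, at 1.5-fold, 20 of the 177 were counted at 24 h, 8 higher and 12 lower, against 9.01% of all measured genes. At 12 h 16 were counted, 8 higher and 8 lower, against 6.52% of all measured genes. In the comparison of 24 h with 12 h, 9 differed by that size, 3 higher at 24 h and 6 lower, against 3.38% of all measured genes.

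**Figure D1:**
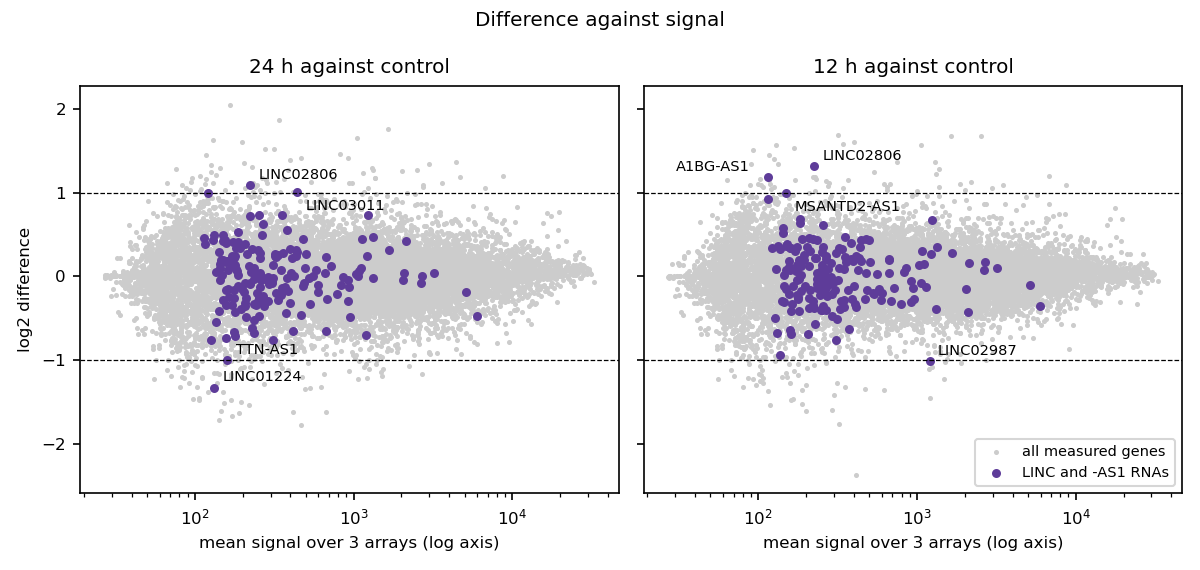
The log2 difference from the control (vertical axis) is plotted against the mean signal over the 3 arrays (horizontal log axis) for 12351 measured genes in grey and the 177 LINC and -AS1 RNAs in violet, with 24 h at left and 12 h at right and dashed lines at 2-fold. The 177 points straddle 0 in both panels, and 4 in each panel reach a dashed line.

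LINC02806, a LINC RNA of chromosome 1 between NBPF11 and PPIAL4G, had the highest difference of the 177 in both comparisons with the control. Its signal was 254.7 at 24 h and 297.7 at 12 h, against 119.5 in the control, which gave differences of 1.09 and 1.32. Both treated arrays were thus higher and stood close to each other, with -0.23 for 24 h against 12 h. LINC02806 passed the signal threshold for membership on the treated arrays alone, so that the choice of members partly fixed its direction. A second probe set of this RNA read 224.4 at 24 h and 233.0 at 12 h, against 133.7 in the control, or 0.75 and 0.80, higher as well but under 2-fold. NBPF genes belong to a duplicated family, and the probe set with the higher signal is of a kind that can bind more than one transcript, so signal of near-identical copies is uncertain here.

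LINC03011, a LINC RNA of chromosome 7 between TPST1 and KCTD7, differed mainly at 24 h, an order shared by ZNF529-AS1 and LINC-PINT below. Its signal was 644.3 at 24 h and 362.6 at 12 h, against 319.7 in the control. The difference from the control was 1.01 at 24 h and 0.18 at 12 h, and the 24 h array was above the 12 h array by 0.83. It was read by 1 probe set.

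Among the antisense RNAs, A1BG-AS1 and MSANTD2-AS1 reached 2-fold at 12 h and lay above the control at 24 h as well. Both became members through the 12 h array, the only one on which they passed 150. A1BG-AS1, which overlaps the plasma glycoprotein gene A1BG and the zinc finger gene ZNF497, read 101.2 at 24 h and 168.4 at 12 h, against 74.0 in the control. Its differences were 0.45 at 24 h and 1.19 at 12 h, so the 24 h array was lower than the 12 h array, at -0.73. MSANTD2-AS1 read 138.3 at 24 h and 207.4 at 12 h, against 103.7 in the control, which gave 0.42 at 24 h and exactly the 2-fold threshold at 12 h. AGAP2-AS1, studied as a growth-related RNA in several tumours, had the same order, with 107.8 at 24 h and 156.4 at 12 h, against 82.7 in the control, or 0.38 and 0.92, and it too passed 150 at 12 h alone.

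Another 3 RNAs were higher on both treated arrays without a 2-fold difference. RUSC1-AS1, antisense to the adaptor gene RUSC1, read 1447.2 at 24 h and 1388.0 at 12 h, against 869.3 in the control, or 0.74 and 0.68. Its second probe set read 137.7, 150.6 and 163.4 on the same arrays in that order and so lay on the other side of the control, at -0.25 and -0.12. LINC01133, an RNA studied in lung and other epithelial cancers that overlaps SLAMF9, read 301.3 at 24 h and 278.5 at 12 h, against 181.9 in the control, or 0.73 and 0.61. ZNF529-AS1 read 170.9 at 24 h and 108.5 at 12 h, against 86.1 in the control, or 0.99 and 0.33, with the 24 h array the highest and the only one over 150.

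LINC02987 was the RNA with the largest lower value at 12 h among the 177. It lies on chromosome 19 between ZNF254 and UQCRFS1. Its signal was 1047.7 at 24 h and 844.1 at 12 h, against 1707.6 in the control, which gave -0.70 and -1.02. A second probe set read 205.7 at 24 h and 231.2 at 12 h, against 382.3 in the control, or -0.89 and -0.73. Both probe sets put both treated arrays under the control. The brighter of them is of the kind that can bind several transcripts. Probe sets of that kind read 38 of the 177 RNAs, A1BG-AS1 and ITGB2-AS1 among them.

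LINC01224, a chromosome 19 RNA between the zinc finger genes ZNF91 and ZNF675, was the lowest at 24 h. It read 77.7 at 24 h and 122.5 at 12 h, against 195.6 in the control, or -1.33 and -0.68, with the 24 h array under the 12 h array at -0.66. TTN-AS1, antisense to the giant muscle protein gene TTN, read 112.9 at 24 h and 140.5 at 12 h, against 226.7 in the control, or -1.01 and -0.69. Its other probe set, listed at 96.3 at 24 h, 66.4 at 12 h and 19.6 in the control, gave a difference of 0.65 at 24 h against the floor, so the direction for this RNA rests on the choice of probe set. TTN itself, at 335.8 at 24 h and 308.2 at 12 h, against 325.6 in the control, differed by 0.04 and -0.08.

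ITGB2-AS1, LINC02901, PTPRG-AS1, LINC00513 and NUTM2A-AS1 had the next lowest means of both differences from the control. ITGB2-AS1, antisense to the leukocyte integrin gene ITGB2, read 251.7 at 24 h and 251.5 at 12 h, against 426.6 in the control, or -0.76 in both comparisons. ITGB2 itself read 134.1 at 24 h and 118.8 at 12 h, against 172.5 in the control, and the pan-leukocyte marker PTPRC was under the floor on all arrays. LINC02901, beside the membrane linker gene EZR, read 126.7 at 24 h and 96.7 at 12 h, against 185.5 in the control, or -0.55 and -0.94. PTPRG-AS1, within the receptor phosphatase gene PTPRG, read 126.6 at 24 h and 135.1 at 12 h, against 210.7 in the control, or -0.73 and -0.64. LINC00513 read 97.7 at 24 h and 117.2 at 12 h, against 165.8 in the control, or -0.76 and -0.50. NUTM2A-AS1 read 193.0 at 24 h and 198.9 at 12 h, against 295.2 in the control, or -0.61 and -0.57. The treated arrays stood below the control array for all of these, but LINC02901, PTPRG-AS1 and LINC00513, like LINC01224 and TTN-AS1, passed 150 on the control array alone, so that the choice of members partly fixed their direction.

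**Figure D2:**
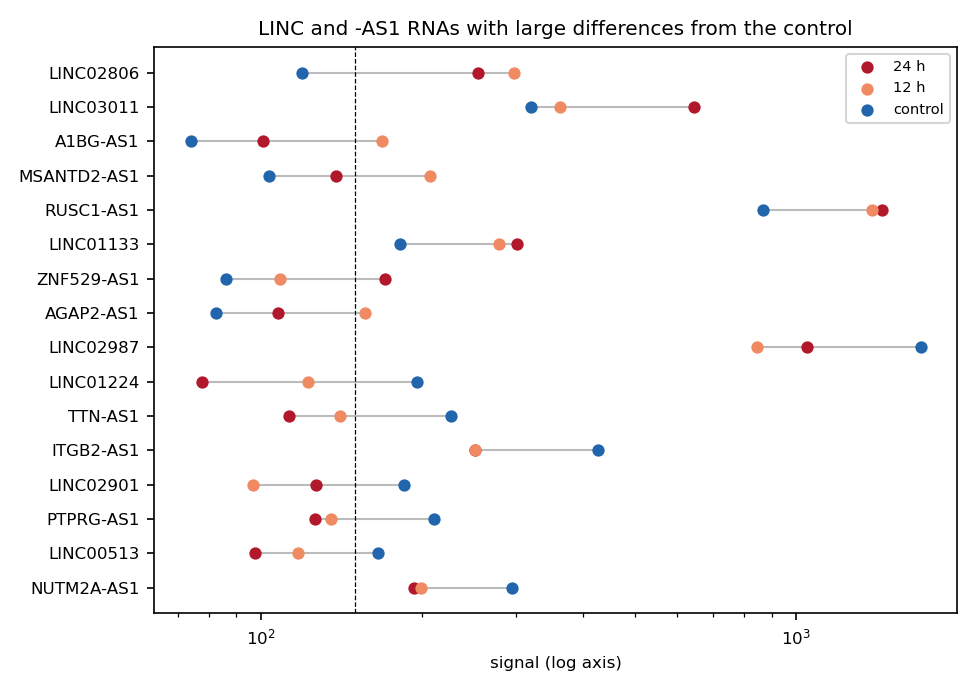
Signals on each array (horizontal log axis) are shown for 16 LINC and -AS1 RNAs, with 24 h in red, 12 h in orange and control in blue, and the dashed line at the membership threshold of 150. The control point lies left of both treated points in the upper 8 rows and right of them in the lower 8 rows.

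Of the 8 RNAs with the highest signals, none reached 1.5-fold in any comparison. Probe sets bind with different strength, so these signals do not rank the RNAs by abundance. FGD5-AS1 read 5165.7 at 24 h and 5592.6 at 12 h, against 7157.7 in the control, or -0.47 and -0.36, with both treated arrays lower. OIP5-AS1, also called Cyrano, a conserved RNA that binds a microRNA, read 4792.5 at 24 h and 5087.4 at 12 h, against 5460.7 in the control. Its difference was -0.19 at 24 h and -0.10 at 12 h, and its 3 probe sets ranged from -0.20 to 0.02 at 24 h. OTUD6B-AS1 read 2483.1 at 24 h and 2075.9 at 12 h, against 1858.3 in the control, or 0.42 and 0.16. LINC00674 read 2314.9 at 24 h and 1677.4 at 12 h, against 2261.9 in the control, or 0.03 and -0.43. The lower value at 12 h rests on that probe set, since its other probe sets over the floor on all arrays lay at 0.15 and 0.13 at 12 h. THAP9-AS1, KRT10-AS1, PRR34-AS1 and ZNF232-AS1 differed at 24 h by 0.04, 0.00, -0.08 and -0.05 and at 12 h by 0.10, 0.17, 0.07 and -0.15.

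LINC-PINT, an RNA whose gene is a known target of p53, read 457.6 at 24 h and 323.8 at 12 h, against 276.4 in the control. The difference was 0.73 at 24 h and 0.23 at 12 h, and the 24 h array was above the 12 h array by 0.50. EPB41L4A-AS1, a host of a small nucleolar RNA, read 1120.5 at 24 h and 1161.7 at 12 h, against 1047.9 in the control, or 0.10 and 0.15. TMPO-AS1, antisense to the nuclear lamina gene TMPO, read 206.3 at 24 h and 243.3 at 12 h, against 260.1 in the control, or -0.33 and -0.10, and TMPO itself differed by -0.59 and -0.15. MCM3AP-AS1 read 154.1 at 24 h and 184.5 at 12 h, against 146.6 in the control, or 0.07 and 0.33. LINC00665 read 359.6 at 24 h and 422.9 at 12 h, against 366.2 in the control, or -0.03 and 0.21, so of these LINC-PINT alone passed 1.5-fold.

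Further RNAs passed 1.5-fold without reaching 2-fold. At 24 h against the control, ZNF436-AS1 and SNAI3-AS1 were higher, at 0.62 and 0.71. MICA-AS1, DMTF1-AS1, TMEM147-AS1, DHX9-AS1 and LINC00342 were lower, at -0.72, -0.68, -0.66, -0.66 and -0.65. At 12 h, ZNF790-AS1 and LINC00526 were higher, at 0.69 and 0.63, and ATXN1-AS1 and ATXN7L3-AS1 were lower, at -0.69 and -0.63. RNAs described above that also passed 1.5-fold are not repeated here. In the comparison of 24 h with 12 h, LINC00857 was higher at 24 h by 0.60. EML2-AS1, EMC3-AS1, ZEB1-AS1 and TMEM147-AS1 were lower at 24 h, at -0.61, -0.64, -0.68 and -0.86. TMEM147-AS1 read 456.1 at 24 h, against 825.3 at 12 h and 719.6 in the control. By the probe sets used, it had the largest difference between the treated arrays among the 177. Its second probe set lay at -0.01 at 24 h and 0.45 at 12 h against the control, and at -0.46 for 24 h against 12 h. The second probe set of ZNF790-AS1 lay at 0.08 at 12 h, so these values depend on the choice of probe set.

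Of the 177 RNAs, 85 had more than 1 probe set, and for 40 of them at least 2 were over the floor on all arrays. All probe sets of an RNA lay on the same side of the control for 23 of 40 at 24 h and for 21 of 40 at 12 h. None of these 40 had probe sets that disagreed by 0.5 or more on both sides of 0, whereas TTN-AS1, outside the 40 because its second probe set was under the floor in the control, did at 24 h. LINC00662 was read by 5 probe sets, all lower on both treated arrays, from -0.74 to -0.13 at 24 h and from -0.79 to -0.14 at 12 h. LINC00342 had 3, from -0.89 to -0.23 at 24 h and from -0.37 to 0.06 at 12 h. LINC00205 had 5 and GABPB1-AS1 had 4 over the floor, and at 24 h these ranged from -0.09 to 0.14 and from 0.00 to 0.21. At 12 h LINC00205 ranged from -0.11 to 0.22 and GABPB1-AS1 from -0.49 to 0.02. Probe sets of one RNA share its sample, so they show dependence on the probe and not replicate error.

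**Figure D3:**
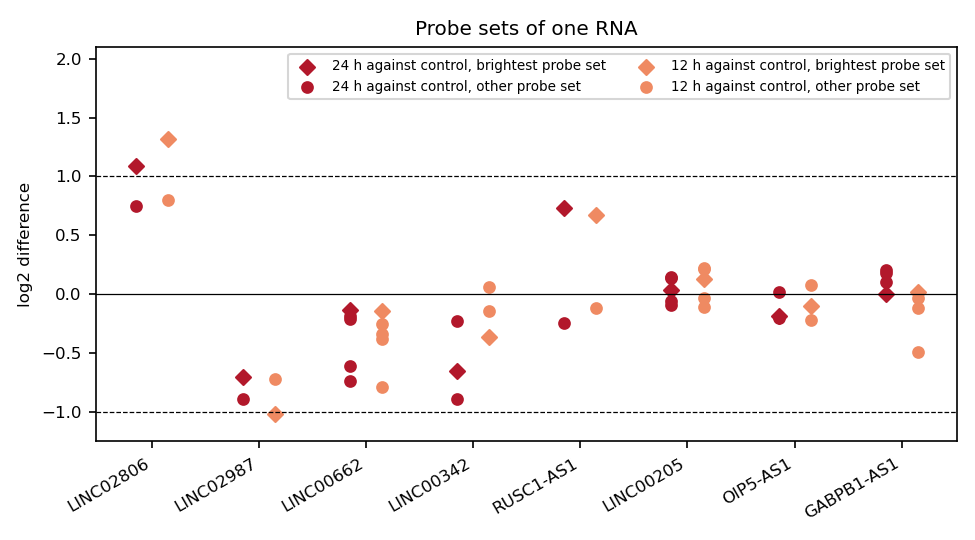
Each point is 1 probe set, over the floor on all arrays, of 8 RNAs picked once their values were known, and the vertical axis is its log2 difference from the control at 24 h (red) and 12 h (orange). Diamonds mark the probe set used, and all points of LINC02806 lie above 0, all of LINC02987 and LINC00662 lie below 0, and those of RUSC1-AS1 lie on both sides.

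By current gene records, 97 of 120 placed -AS1 RNAs overlap a protein-coding gene, against 8 of 55 placed LINC RNAs. Antisense RNAs were set beside the genes they are named after. Of 121 partner names, 98 were measured, 14 stayed under the floor on all arrays and 9 had no probe set of their own. Among these 9 is HOXB, the name of a gene cluster and not of a gene. Both differences lay on the same side of 0 in 52 of 98 pairs at 24 h, in 55 of 96 pairs at 12 h that had a value other than 0 on both sides, and in 54 of 98 pairs for 24 h against 12 h. Pearson's r across pairs, which share the arrays, was 0.09 at 24 h, 0.23 at 12 h and -0.01 for 24 h against 12 h. In no pair did both reach 2-fold. ITGB2-AS1 and ITGB2 were the pair with both differences at 0.5 or more in size at 12 h, at -0.76 and -0.54. FRMD6-AS1 and FRMD6 were that pair at 24 h, at -0.52 and -0.70. For 24 h against 12 h, TRIM52-AS1 and TRIM52 passed that size, at -0.56 and -0.64. ZEB1-AS1 and ZEB1 passed it on opposite sides, at -0.68 and 0.73, the latter a bound set by the floor.

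One partner reached 2-fold. RUNDC3A read 34.6 at 24 h and 114.5 at 12 h, against 169.0 in the control, which is -1.46 at 24 h as a bound set by the floor and -0.56 at 12 h. Its antisense RNA RUNDC3A-AS1 was on the other side, with 178.6 at 24 h and 195.6 at 12 h, against 153.9 in the control, or 0.21 and 0.35. SERTAD4 had the next lowest partner value, at -0.93 and -0.89, and SERTAD4-AS1 was lower too, at -0.43 and -0.42. RUSC1, at -0.33 and -0.15, lay opposite to RUSC1-AS1 as read by its main probe set. A1BG lay at 0.15 and 0.42, on the side of A1BG-AS1, while MSANTD2 lay at -0.16 in both comparisons. Probe sequences were not used here, so the strand that each probe set reads rests on the platform annotation.

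**Figure D4:**
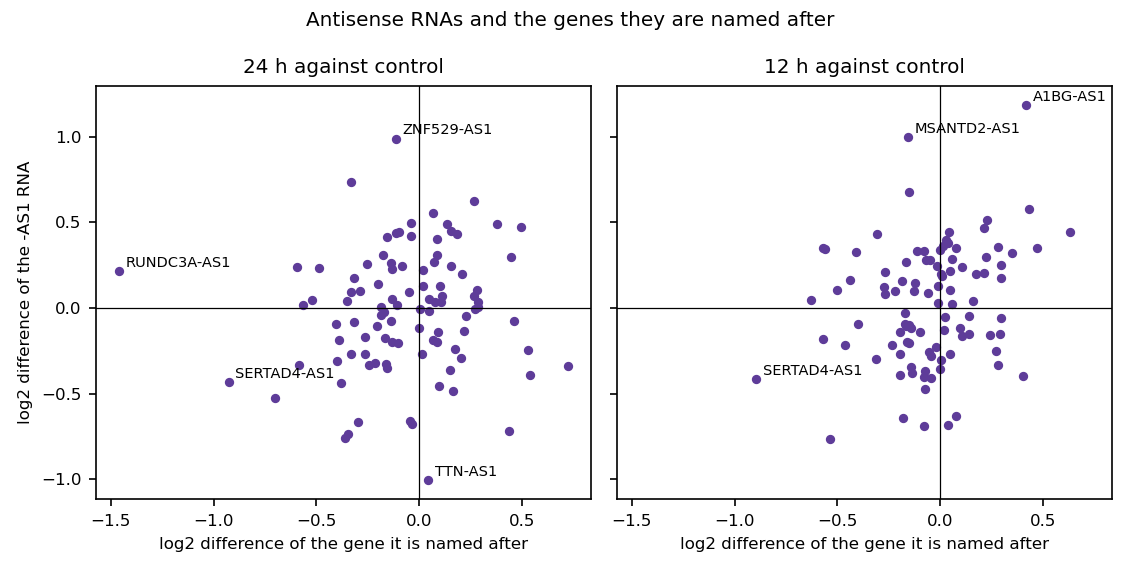
For 98 pairs the log2 difference of the -AS1 RNA (vertical axis) is plotted against that of the gene it is named after (horizontal axis), with 24 h against control at left and 12 h at right. The points spread over both sides of 0 on each axis, and RUNDC3A-AS1 stands apart at left because RUNDC3A was at -1.46.

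Promoter windows were found in RefSeq for 141 of the 177 RNAs, with 181 windows in all because some have several starts. A window was called CpG-rich at over 50% G and C with an observed over expected CpG ratio over 0.6. That held for 69.6% of the 181 windows, against 30.4% of 1080 windows of LINC and -AS1 genes with signals of 150 or less and 46.8% of all 35116 windows. It held for 47.3% of the LINC windows and 79.4% of the -AS1 windows among the expressed RNAs. For other genes over 150 it held for 76.1%. These shares are a description of RNAs chosen by their signal.

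**Figure D5:**
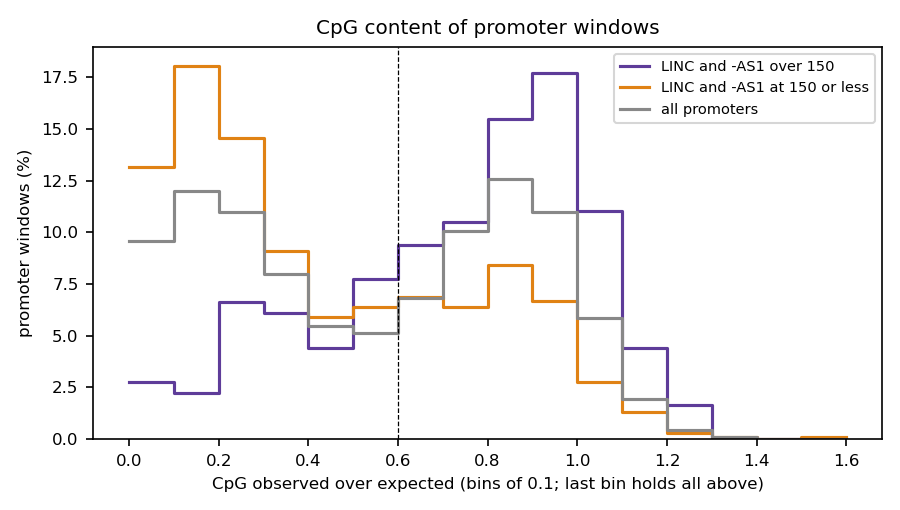
The share of promoter windows in percent (vertical axis) is shown by CpG observed over expected ratio in bins of 0.1 (horizontal axis) for expressed LINC and -AS1 RNAs (violet), for those at 150 or less (orange) and for all windows (grey), with a dashed line at 0.6. The violet line is highest to the right of the dashed line, and the orange line is highest to its left.

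Starts of other genes on the other strand were counted if they lay up to 1000 bases upstream or up to 250 bases downstream. Such a start was found for 67 of 141 RNAs, or 47.5%, against 199 of 978 LINC and -AS1 genes at 150 or less, or 20.3%. It was found for 56 of 96 -AS1 RNAs, 34 of them with the gene they are named after, and for 11 of 45 LINC RNAs. For 50 such pairs with a measured protein-coding gene, both differences lay on the same side of 0 in 28 at 24 h and in 30 at 12 h. Pearson's r across these pairs was 0.11 at 24 h and 0.35 at 12 h. FGD5-AS1 starts 78 bases from NR2C2, a nuclear receptor gene, and not from FGD5, which was under the floor. NR2C2 read 1862.3 at 24 h and 1844.0 at 12 h, against 2552.7 in the control, or -0.45 and -0.47, beside -0.47 and -0.36 for FGD5-AS1. That pair was picked once its values were known. Other pairs lay on opposite sides, such as TRAM2-AS1 at 0.24 and TRAM2 at -0.59 at 24 h.

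Among pairs of the 177 RNAs that share a start region, one lay on the same side of the control and another on opposite sides. The annotated starts of LINC02987 and LINC00662, printed above, overlap by 45 bases, and all 7 of their probe sets were lower on both treated arrays, from -0.89 to -0.13 at 24 h and from -1.02 to -0.14 at 12 h. LINC00662 itself read 912.7 at 24 h and 908.9 at 12 h, against 1001.7 in the control, or -0.13 and -0.14. LINC-PINT and LINC00513, whose starts are 154 bases apart, lay at 0.73 and -0.76 at 24 h and at 0.23 and -0.50 at 12 h. LINC00526 and LINC00667, whose starts are 71 bases apart, lay at 0.06 and 0.13 at 24 h and at 0.63 and -0.14 at 12 h.

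Of the 6 motifs searched on both strands, the ATF4 and CHOP element TGATGNAAN, bound by factors of the integrated stress response, was in 3 of the 181 windows, 1.66% against 3.61% of all windows. The 3 RNAs were LINC02806, LINC01133 and LINC00623, of which LINC00623 differed by -0.02 at 24 h and -0.39 at 12 h. The antioxidant element TGACNNNGC was in 31 windows, 17.1% against 13.3% of all windows, among them those of LINC03011. The E-box CACGTG was in 14 windows, 7.73% against 7.26%, LINC-PINT, LINC00513 and ZNF529-AS1 among them. LINC-PINT and LINC00513 hold the same E-box, since their windows overlap. A site in overlapping windows was counted in each of them. The E2F element TTTCGCGC or TTTGGCGC was in 5, 2.76% against 1.15%, the sterol element TCACNCCAC was in 1, that of ATXN7L3-AS1, against 1.13%, and the heat shock element was in 0, against 0.490% of all windows. Among windows of other genes over 150 the ATF4 and CHOP element was in 2.01% and the antioxidant element in 14.7%. The E-box was in 9.58% of those windows and the E2F element in 1.83%. A match describes letters and not binding.

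Several of the RNAs lie beside genes of cholesterol synthesis, a set picked once the values were known. RUSC1-AS1 overlaps FDPS, the gene of farnesyl diphosphate synthase, which read 10412.9 at 24 h and 9914.0 at 12 h, against 7100.7 in the control, or 0.55 and 0.48, beside 0.74 and 0.68 for RUSC1-AS1. SNAI3-AS1 starts 282 bases from MVD, the gene of mevalonate diphosphate decarboxylase, on the other strand. SNAI3-AS1 read 271.8 at 24 h and 225.7 at 12 h, against 165.6 in the control, and MVD read 104.8, 170.7 and 83.0 on those arrays, so that the pair differed by 0.71 and 0.34 at 24 h and by 0.45 and 1.04 at 12 h. MCM3AP-AS1 starts 457 bases from LSS, the gene of lanosterol synthase, which differed by 0.34 at 24 h and 0.63 at 12 h, beside 0.07 and 0.33 for MCM3AP-AS1. The pairs were picked by their values, no list of such genes was fixed, and the second probe set of RUSC1-AS1 lay below the control, so these values stand as a description only.

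The antisense RNAs whose names begin with ZNF, for zinc finger genes, were also grouped once the values were known. Antisense RNAs of zinc finger genes with other names are outside this group, among them ZEB1-AS1 at -0.34 and 0.34, ZBED5-AS1 at -0.17 and -0.28 and SNAI3-AS1 at 0.71 and 0.45 at 24 h and 12 h. Of the 9 ZNF-named RNAs, 7 lay above the control at 24 h, with a median of 0.34, and 6 at 12 h, with a median of 0.17. ZNF529-AS1 and ZNF674-AS1 passed 150 at 24 h alone and ZNF790-AS1 on the treated arrays alone. The choice of members thus partly fixed their direction, and with it this count and these medians. ZNF667-AS1 read 1415.0 at 24 h and 950.3 at 12 h, against 1039.1 in the control, or 0.45 and -0.13. ZNF793-AS1 lay at 0.49 and 0.21, and ZNF687-AS1 was the lowest, at -0.27 in both comparisons. For their 7 measured partners the median was 0.01 at 24 h and 0.05 at 12 h, and for 347 other ZNF-named genes over 150 it was 0.04 and 0.03.

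As read by the probe set with the highest mean signal, the remaining 114 RNAs differed by less than 1.5-fold in every comparison. Other probe sets of some of them passed that size, in both directions. Among these, a second of LINC02551 lay at -1.43 at 24 h, a bound set by the floor, and -1.13 at 12 h. A second of LINC01000 lay at 0.74 at 24 h and 0.55 at 12 h. The 6 LINC RNAs with mean signals over 500 were LINC00339, LINC00938, LINC00294, LINC01000, LINC00621 and LINC01003, and they lay between -0.49 and 0.06 at 24 h and between -0.33 and 0.31 at 12 h. The 11 -AS1 RNAs in that range of signal were WAC-AS1, PITPNA-AS1, PSMA3-AS1, NINJ2-AS1, MAPKAPK5-AS1, SPEN-AS1, ILRUN-AS1, SPINT1-AS1, THUMPD3-AS1, JMJD1C-AS1 and DSP-AS1, between -0.33 and 0.31 at 24 h and between -0.30 and 0.28 at 12 h. These include RNAs named after the kinase gene MAPKAPK5, the proteasome gene PSMA3 and DSP, the gene of the desmosomal protein desmoplakin.

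At mean signals between 250 and 500, 17 LINC RNAs lay between -0.28 and 0.33 at 24 h and between -0.30 and 0.44 at 12 h. These were LINC02035, LINC02256, LINC01004, LINC00537, LINC03026, LINC00847, LINC01296, LINC01560, LINC01138, LINC02762, LINC01806, LINC02482, LINC02615, LINC00963, LINC01355, LINC00467 and LINC01089. In that range 33 -AS1 RNAs lay between -0.47 and 0.56 at 24 h and between -0.51 and 0.44 at 12 h. They were CLN8-AS1, ATP2B1-AS1, DLGAP1-AS1, EP300-AS1, URB1-AS1, ASH1L-AS1, GNAS-AS1, RALY-AS1, MELTF-AS1, ZBED5-AS1, SCAMP1-AS1, SLC9A3-AS1, TTC28-AS1, ST20-AS1, PCBP1-AS1, TRAM2-AS1, MRPL20-AS1, NUTM2B-AS1, EXOC3-AS1, NIFK-AS1, LIPT2-AS1, ELOA-AS1, HLA-F-AS1, ENTPD1-AS1, LOXL1-AS1, NR2F1-AS1, DLX6-AS1, DHRS4-AS1, TAPT1-AS1, SDCBP2-AS1, ATP2A1-AS1, IL6-AS1 and SLC25A25-AS1. Of these 33, 15 were above the control at 24 h and 18 at 12 h.

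Under a mean signal of 250, 15 LINC RNAs lay between -0.42 and 0.53 at 24 h and between -0.31 and 0.45 at 12 h, namely LINC01278, LINC02551, LINC00839, LINC00597, LINC01881, LINC02604, LINC01128, LINC00886, LINC02591, LINC00475, LINC00525, LINC03068, LINC00957, LINC00648 and LINC01186. The 32 -AS1 RNAs there lay between -0.48 and 0.49 at 24 h and between -0.40 and 0.58 at 12 h, with 18 above the control in each comparison. They were FAM13A-AS1, C10orf95-AS1, NRSN2-AS1, CKMT2-AS1, PXN-AS1, SLC16A1-AS1, FOXN3-AS1, CARD8-AS1, PSMB8-AS1, WARS2-AS1, TNRC6C-AS1, PRDX6-AS1, IQCH-AS1, TRIM52-AS1, ITGB8-AS1, ARHGAP5-AS1, KANSL1-AS1, TPT1-AS1, ANXA2R-AS1, HOXB-AS1, MATN1-AS1, ASB16-AS1, RBPMS-AS1, TIAM1-AS1, ITPK1-AS1, LAMTOR5-AS1, ALOX12-AS1, ASMTL-AS1, MIF-AS1, SEC24B-AS1, RASSF1-AS1 and TMEM254-AS1.

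The RNAs nearest the membership threshold were given by their highest signal. Just over 150 lay PSMG3-AS1 at 152.2, LINC02210 at 153.3 and RASSF8-AS1 at 155.9. Just under it, and so left out, lay ID2-AS1 at 149.2, LHX4-AS1 at 149.6 and NDUFB2-AS1 at the threshold itself. Of the 177 RNAs, 142 passed 150 on all 3 arrays, 15 on 2 and 20 on 1 (7 at 24 h, 7 at 12 h and 6 in the control), and all 177 were over the floor on every array. Another 76 of 354 long noncoding RNAs of other name patterns, such as the small nucleolar RNA hosts, passed 150, and their median was 0.06 at 24 h and 0.00 at 12 h.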

How the data were processed

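Total RNA of 3 cultures was measured on 3 arrays, 1 per group. Linear signal intensity is what the authors deposited. MAS5 is named in the submitters' processing notes, without settings. The mean after trimming 2% at each end was 500.1 on every array, so a change of total RNA per cell would be scaled away. Gene names came from the platform annotation, which gave 1 gene for 41097 of 54675. Each gene took its probe set with the highest mean signal, a floor was set at the 50th percentile of the values, 61.4, and log2 differences were counted at 2-fold, with no test because no group had a replicate. A gene over the floor on at least 1 array was called measured. The members and the lists were chosen with earlier results of these data known.

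RNAs were named where they differed 2-fold, had 1 of the 8 highest signals, had 1 of the 8 largest mean differences from the control in a direction, lay nearest the threshold, had a 2-fold partner or were listed by name. LINC00511, also listed, is not analysed here. RNAs named outside this rule, namely the 1.5-fold RNAs, the shared-start pairs, the partners with the lowest values and the neighbours, were chosen after their values were seen. Promoters came from RefSeq (GRCh38.p14). The 11 alternatives changed the scaling, the floor, the choice of probe set, the membership threshold or the symbols. The counting of 2-fold differences was tested on simulated data. Python 3.11.15, pandas 2.3.3 and NumPy 2.4.6 were used.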

Additional observations from a re-analysis of the deposited data

How the results depend on the processing

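The number of arrays limits the precision, and low signals limit it further: with a floor at the 65th percentile, 192.4, only 1 RNA differed 2-fold at 24 h and 1 at 12 h, against 4 in each comparison as reported. At 24 h the count was 2 with the median over probe sets, 2 with transcript-specific probe sets (160 RNAs) and 2 with a membership threshold of 250 (111 RNAs). At 12 h the count was 1 with the median over probe sets, 1 with transcript-specific probe sets, 2 with the threshold of 250 and 2 with a mean signal over 150 (159 RNAs). The settings with 160, 159 or 111 RNAs hold fewer by construction, the higher floor makes low signals equal, and otherwise the cause was not tested. The other alternatives gave 3 or 4 at 24 h and 3 to 5 at 12 h, and every alternative gave 0 for 24 h against 12 h. LINC03011 has no second probe set and signals over every floor, so a raised floor or another probe set choice could not alter its value. It kept 2-fold at 24 h in 7 of 7 alternatives, LINC01224 in 6 of 7 and TTN-AS1 in 3 of 7, and with transcript-specific probe sets TTN-AS1 reversed to 0.65. LINC02806 kept it in 4 of 7 at both times, with lowest values of 0.40 at 24 h and 0.63 at 12 h. At 12 h LINC02987 kept it in 4 of 7, MSANTD2-AS1 in 4 of 7 and A1BG-AS1 in 5 of 6. Pairs on the same side of 0 were 32 of 70 at 24 h and 34 of 70 at 12 h with transcript-specific probe sets, and 35 of 98 for 24 h against 12 h with the higher floor. Over the RNAs named by rule, 634 of 705 recomputed differences stayed within the spread of all measured genes, 70 moved by more and 1 reversed. No paired analysis was possible because each group has 1 array.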
